A study of Saccharomyces cerevisiae with 31 samples.

Results

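The 10 genes described here are 6 permeases that bring nitrogen sources into Saccharomyces cerevisiae and 4 regulators of nitrogen and amino acid metabolism, out of 5382 genes whose signal passed a filter on dim probe sets. They were chosen by function and matched by gene symbol in the annotation of the array. Each had 1 probe set, and all 10 passed the filter. Their loci are YKR039W (GAP1, chromosome XI), YCL025C (AGP1, III), YOR348C (PUT4, XV), YDL210W (UGA4, IV), YHL016C (DUR3, VIII), YEL063C (CAN1, V), YEL009C (GCN4, V), YER040W (GLN3, V), YFL021W (GAT1, VI) and YNL229C (URE2, XIV). The permeases were GAP1 and AGP1, which take up many amino acids, PUT4 (proline), UGA4 (4-aminobutyrate, GABA), DUR3 (urea) and CAN1 (arginine). The regulators were the transcription activators GCN4, GLN3 and GAT1 and the cytoplasmic inhibitor URE2.

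Yeast cells given a good nitrogen source keep genes for poorer sources off, which is called nitrogen catabolite repression. Gln3 and Gat1 are GATA-type activators of these genes, and Ure2 holds Gln3 out of the nucleus when nitrogen is plentiful. Gcn4 activates amino acid synthesis genes when amino acids are short, and its amount is set mainly by translation of its messenger RNA. Transcript levels, which are all that was measured, do not report the activity of these proteins.

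Strain CEN.PK122 grew aerobically in continuous culture and swung by itself between respiratory and reductive states with a period of 2 h. Samples 4 min apart covered 12.53 to 14.53 h, and total RNA of each was hybridized to an array of the Affymetrix Yeast 2.0 type, 31 in all. All arrays form 1 group, with no untreated or mutant samples, and each has a labelled phase angle from 5.93 to 362.01 degrees. The labels name neither the nitrogen source nor the angles that are respiratory, so phases are given only as angles, and a change of RNA per cell and a change in the share of cells that express a gene cannot be told apart.

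Values are probe set intensities after quantile normalization over S. cerevisiae probe sets. They were set against the phase angle by a cosine fit with limma, which gives the range between fitted peak and trough in log2 units (1 is 2-fold) and a peak angle, with a moderated F-test and Benjamini-Hochberg adjustment over 5422 probe sets. A call is an adjusted p under 0.05. The arrays cover about 1 cycle, with no repeat of any angle and no second culture named in the labels, so a call means variation along this time course and not recurrence. Neighbouring arrays were not independent: the median correlation of neighbouring residuals was 0.645 over all probe sets, and it was above that in 6 of the 10 genes. Calls for the 10 genes are therefore also given from a fit with that serial correlation, which may still be too lenient for those 6.

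Median intensity per array ran from 1056 to 2142. The arrays were split by 2 ranges of the array numbers in the labels, called batch 1 (16 arrays) and batch 2 (15 arrays) here. The labels do not state what these ranges mean. Poly-A spike controls, read relative to the hybridization spikes, did not overlap between the batches. They ran from -4.16 to -3.45 (log2) in batch 1 and from -5.18 to -4.57 in batch 2. The batches sampled different angles. Batch 2 supplied the arrays from 17.8 to 41.54 and from 100.88 to 148.35 degrees, which batch 1 did not sample. From 207.69 to 314.51 degrees 5 arrays of batch 2 each lay between 2 of batch 1, and there the median offset of batch 2 from its neighbours was between -0.05 (GAT1) and 0.13 (GLN3) on the log2 scale for the 10 genes. Single offsets were larger. All 5 were positive for UGA4 (0.06 to 0.31) and negative for GAT1 (-0.33 to -0.02), and those of GLN3 ran from -0.17 to 0.43.

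Over the cycle 9 of the 10 genes varied with phase, against 89.1% of all probe sets tested, so the count is near the background. With serially correlated arrays 6 of 10 passed, against 60.3%. A range of 2-fold or more was found for 5 genes (DUR3, UGA4, AGP1, CAN1 and GAT1), against 23.1% of all probe sets. Of the 10 genes 7 passed with fitted peaks nearer 0 than 180 degrees, against 40.2% of all probe sets tested. Another 2 (PUT4 and GCN4) passed with peaks nearer 180 degrees, against 48.9%. The median range was 1.35 for the 6 permeases and 0.16 for the 4 regulators, beside 0.54 for all probe sets tested. With batch as a term in the fit the same 9 genes passed, with ranges of 3.04 for DUR3, 2.48 for UGA4, 1.48 for AGP1, 1.27 for CAN1, 1.21 for GAT1, 0.55 for GAP1, 0.52 for PUT4, 0.18 for GCN4 and 0.16 for URE2.

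**Figure D1:**
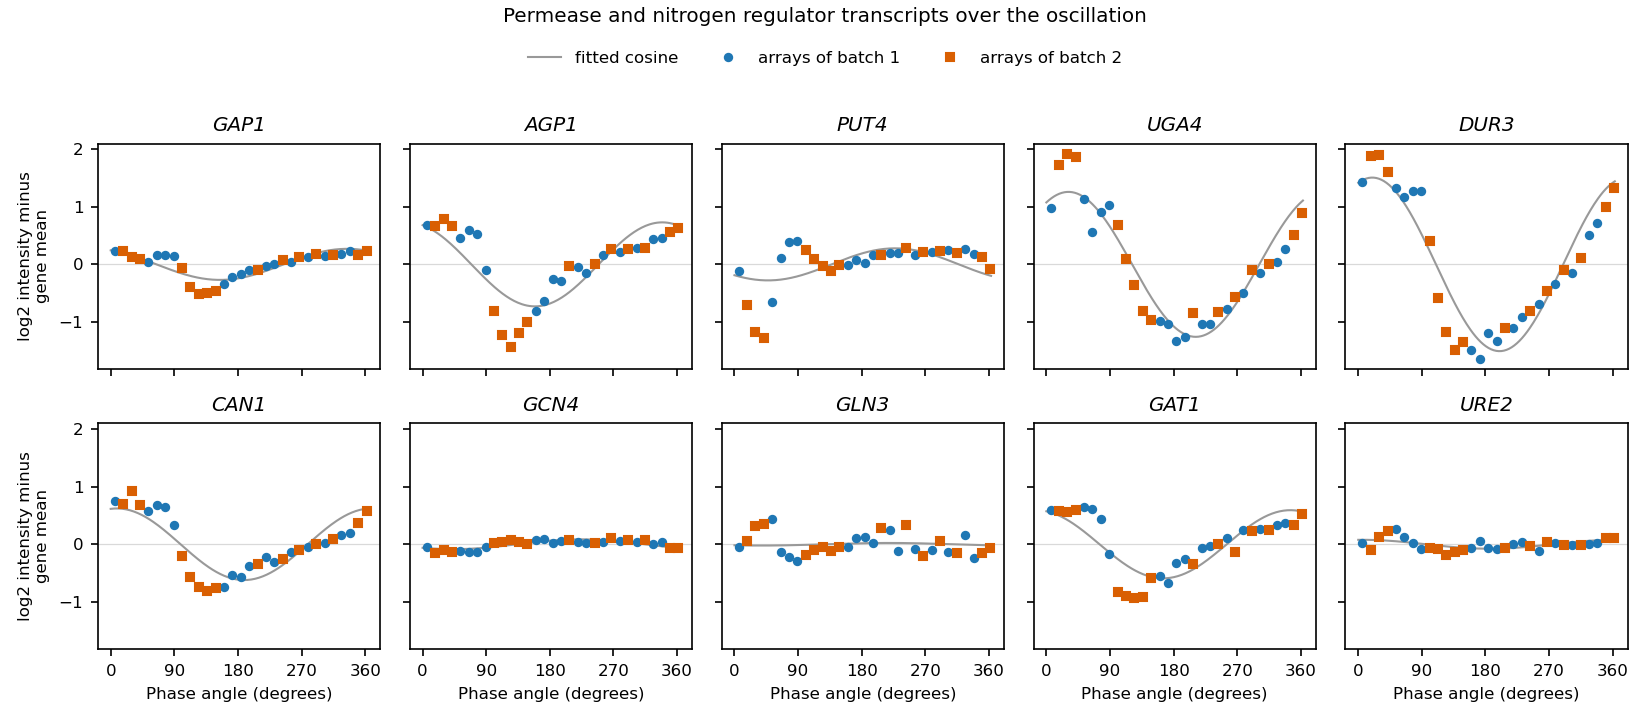
Normalized log2 intensity of each gene minus its mean over 31 arrays (vertical axis) against the labelled phase angle in degrees (horizontal axis). Points are single arrays, coloured by batch, and the grey line is the fitted cosine. DUR3 and UGA4 swing most, PUT4 dips from 17.8 to 53.41 degrees, and GCN4, GLN3 and URE2 span 0.26, 0.73 and 0.45.

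DUR3, the urea and polyamine transporter of the plasma membrane, swung most. Its normalized intensity had a lowest value of 697.9 at 172.09 degrees, a median of 1961 and a highest value of 8138 at 29.67 degrees. The first 8 arrays and the last, at 362.01 degrees, were all at 4871 or more, and low values ran from 124.62 to about 231 degrees, where the array at 231.43 degrees held 14.2% of the highest value. The fitted range was 3.01 ± 0.20 (SE, n = 31 arrays), an 8.07-fold difference, with a peak at 19.9 ± 3.8 degrees (SE). Its adjusted p was 2.66e-12 in limma and 1.27e-07 with serially correlated arrays. The range was 2.89 and 3.24 within batches 1 and 2.

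UGA4, which imports GABA into the cell, had the next largest swing. Its intensity was lowest at 421.2 (183.96 degrees), had a median of 990.1 and was highest at 4022 (29.67 degrees). Its fitted range was 2.52 ± 0.17 (SE, n = 31 arrays) with a peak at 31.3 ± 3.9 degrees (SE), an adjusted p of 3.19e-12 in limma and 2.03e-06 with serially correlated arrays. The profile was not a single hump. After the 3 highest arrays at 17.8 to 41.54 degrees, with 3506, 4022 and 3854, it was at 1572 at 65.28 degrees and again at 2168 at 89.01 degrees. The 3 highest arrays are all of batch 2 and the arrays on either side, at 2107 and 2350.4, of batch 1. The range was 2.29 within batch 1, which lacks those arrays, and 2.74 within batch 2.

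CAN1, the arginine permease, ran from 2095 at 136.48 degrees through a median of 3554.5 to 6945.5 at 29.67 degrees. Arrays from 5.93 to 77.14 degrees were all at 5470.5 or more, and those from 112.75 to 195.82 degrees all at 2817 or less. The fitted range was 1.24 ± 0.13 (SE, n = 31 arrays), with a peak at 8.8 ± 6.0 degrees (SE) and an adjusted p of 7.27e-09 in limma and 1.23e-05 with serially correlated arrays. Within batches the range was 1.14 and 1.44.

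The 2 broad permeases were both lowest at 124.62 degrees, with swings of different size. AGP1, an amino acid permease induced by external amino acids, ran from 1793 at 124.62 degrees through a median of 5650.4 to 8401.5 at 29.67 degrees. GAP1, the general amino acid permease, ran from 6859 at 124.62 degrees through a median of 10399.8 to 11495 at 338.24 degrees. The fitted range was 1.46 ± 0.18 for AGP1 and 0.54 ± 0.06 for GAP1 (SE, n = 31 arrays), with 95% intervals of 1.09 to 1.83 and 0.41 to 0.67. Peaks lay at 339.0 ± 7.2 and 334.6 ± 7.0 degrees (SE). Both passed with serially correlated arrays (adjusted p = 0.00012 for AGP1 and 0.000473 for GAP1, limma). Within batches 1 and 2 the range was 1.06 and 1.89 for AGP1, and 0.41 and 0.68 for GAP1. The lowest AGP1 arrays, from 100.88 to 148.35 degrees, and the lowest GAP1 arrays, from 112.75 to 148.35 degrees, are all of batch 2.

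The median deposited intensity of the GAP1 probe set stood at percentile 95.6 of all probe sets tested, and whether signal was still linear at that level was not tested. The profiles of AGP1 and GAP1 had a correlation of 0.93 over the 31 arrays. This is a description, since all profiles share the same arrays.

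PUT4, the high-affinity proline permease, differed from the other permeases. It was lowest in the stretch where AGP1, UGA4, DUR3 and CAN1 had their highest arrays, with 5581 at 17.8, 4047 at 29.67, 3769 at 41.54 and 5786.5 at 53.41 degrees. It then had its highest value, 12138, at 89.01 degrees, and its median was 10176. From 65.28 to 350.11 degrees every array lay between 8453 and 12138. The dip was narrow, and the fitted cosine range was 0.56 ± 0.18 (SE, n = 31 arrays) with an adjusted p of 0.0193 in limma, and the call was lost with serially correlated arrays (adjusted p = 0.261). The highest array was 3.22 times the lowest.

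PUT4's departure from a single cosine was tested by the terms at 2 and 3 times the angle, called faster variation here. This test names no angle, so it does not test the dip as such. Its faster terms spanned 1.08 on the log2 scale (adjusted p = 7.83e-06, limma, and 0.00497 with serially correlated arrays). Faster variation was called for 10 of 10 genes, against 86.1% of all probe sets, and for 6 of 10 with serially correlated arrays, against 48.0%. PUT4's 3 lowest arrays were all of batch 2, in a part of the cycle that batch 1 did not sample, and the first-harmonic range was 0.17 within batch 1 (adjusted p = 0.644, limma) and 1.02 within batch 2 (adjusted p = 0.019, limma). The faster terms passed within both batches (adjusted p = 0.00529 and 0.000145, limma). The fit within batch 1 cannot test the dip, because that batch has no array between 5.93 and 53.41 degrees. The nearest batch 1 arrays, at 5.93 and 53.41 degrees, had 8433 and 5786.5. The array at 41.54 degrees was also the dimmest of the 31, and without the 5 dimmest arrays the faster terms still passed with a span of 1.02.

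**Figure D2:**
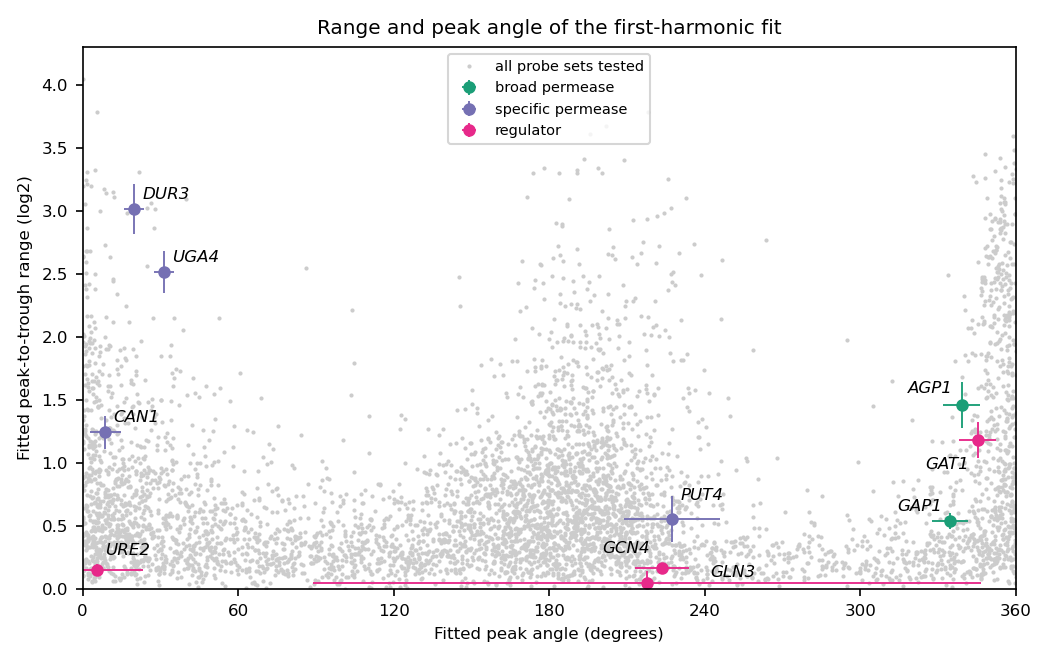
Fitted peak-to-trough range (log2, vertical axis) against fitted peak angle in degrees (horizontal axis) for the 10 genes, with SE bars, and for all 5422 probe sets tested (grey). In this single-cosine fit DUR3, UGA4 and CAN1 peak between 8.8 and 31.3 degrees, AGP1, GAP1 and GAT1 between 334.6 and 345.2 degrees, and PUT4 and GCN4 at 227.3 and 223.6 degrees, while the peak angle of GLN3 has an SE of 129 degrees.

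Peak angles depended on the form of the curve. With the first 3 harmonics together the fitted curve peaked at 38.5 degrees for AGP1 and for GAT1, at 39.0 for UGA4, 40.5 for DUR3 and 42.0 for CAN1, so the separation of AGP1 and GAT1 from the other 3 was not seen in that fit. The curve of GAP1 peaked at 323.5 degrees, that of PUT4 at 318.0 and that of GCN4 at 288.0 degrees, so PUT4 and GCN4 then lay nearer 0 than 180 degrees.

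Among the regulators, GAT1 varied by more than 2-fold, and the other 3 had fitted ranges of 0.17 or less. GAT1, a GATA activator whose own gene is under nitrogen control, ran from 1853 at 124.62 degrees through a median of 3849 to 5593 at 53.41 degrees. The first 6 arrays were all at 5221 or more, and the 4 arrays from 100.88 to 136.48 degrees all at 1999.5 or less. The fitted range was 1.18 ± 0.14 (SE, n = 31 arrays, 95% interval 0.89 to 1.48), with a peak at 345.2 ± 7.1 degrees (SE), an adjusted p of 1.02e-07 in limma and 0.000358 with serially correlated arrays. It was 0.97 and 1.45 within batches 1 and 2. The 4 lowest arrays are all of batch 2.

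GLN3, the other GATA activator, ran from 721.4 at 89.01 degrees through a median of 847.1 to 1197 at 53.41 degrees. Its arrays at 29.67, 41.54 and 53.41 degrees had 1094, 1122 and 1197, and a single array at 243.3 degrees, with 1105.5, lay among them. The first-harmonic range was 0.05 ± 0.10 (SE, n = 31 arrays, adjusted p = 0.909, limma), with an upper 95% bound of 0.25. Its faster terms passed (range 0.45, adjusted p = 0.00748, limma) and did not with serially correlated arrays (adjusted p = 0.644). The first 3 harmonics in 1 fit gave a range of 0.43 (adjusted p = 0.02, limma). On the deposited scale the first-harmonic range was 0.54 (adjusted p = 0.00496, limma) and with scaling by the hybridization spikes 0.44 (adjusted p = 0.000321, limma). The call for GLN3 therefore turned on the form of the curve, the scaling and the treatment of neighbouring arrays.

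URE2, the inhibitor of Gln3, ran from 1873 at 124.62 degrees through a median of 2116 to 2553 at 53.41 degrees. Its fitted range was 0.15 ± 0.05 (SE, n = 31 arrays, 95% interval 0.06 to 0.25), with a peak at 5.6 ± 17.9 degrees (SE). It passed in limma (adjusted p = 0.0122) and not with serially correlated arrays (adjusted p = 0.375). Within batch 1 it did not pass (range 0.12, adjusted p = 0.198, limma). Its range was 0.44 on the deposited scale and 0.25 with scaling by the hybridization spikes, so its size depended on the scaling.

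GCN4, the activator of amino acid synthesis genes, was high on all arrays, from 12840.0 at 17.8 degrees through a median of 14463 to 15346 at 267.03 degrees. Its 6 lowest arrays were the 6 from 17.8 to 77.14 degrees, all at 13242 or less. The fitted range was 0.17 ± 0.03 (SE, n = 31 arrays, 95% interval 0.11 to 0.23), with a peak at 223.6 ± 10.4 degrees (SE). The adjusted p was 4.39e-05 in limma and 0.0739 with serially correlated arrays. The deposited median of this probe set stood at percentile 99.4, near the top of the scale, where linearity was not tested. On the deposited scale the call was lost (range 0.10, adjusted p = 0.387, limma).

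Next, 2 windows of the cycle were compared without a curve, 5 arrays from 120 to 180 degrees and 6 arrays from 0 to 60 degrees. From 120 to 180 degrees 7 of 10 genes were lower, against 38.6% of all probe sets tested, and 2 (PUT4 and GCN4) were higher, against 45.5%. GLN3 missed the threshold (adjusted p = 0.0516, limma). It passed as lower on the deposited scale (-0.57, adjusted p = 0.00237), with median centring (-0.28, adjusted p = 0.0084), with scaling by the hybridization spikes (-0.35, adjusted p = 0.00123) and without the last array (-0.25, adjusted p = 0.0199, all limma). Arrays of the windows did not overlap for 7 of the 10 genes, against 68.7% of all probe sets tested. With serially correlated arrays 6 of 10 differed, against 54.4%.

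DUR3 had 960.4, 778.3, 857.9, 779.2 and 697.9 from 120 to 180 degrees, against a lowest of 5442, a median of 6256 and a highest of 8138 from 0 to 60 degrees. The windows did not overlap, with a log2 difference of -3.01 ± 0.24 (SE, adjusted p = 1.72e-11, limma), and of -1.93 with serially correlated arrays (adjusted p = 0.000389). UGA4 had 830.0, 605.0, 542.8, 536.2 and 521.6 from 120 to 180 degrees, against a lowest of 1975, a median of 2928 and a highest of 4022 from 0 to 60 degrees. The difference was -2.25 ± 0.19 (SE, adjusted p = 3.49e-11, limma), also without overlap, and -1.44 with serially correlated arrays (adjusted p = 0.000848).

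AGP1 had 1793, 2135, 2419, 2782 and 3134.5 from 120 to 180 degrees, against 6694, 7710.0 and 8401.5 (lowest, median and highest) from 0 to 60 degrees. CAN1 had 2194, 2095, 2164, 2185 and 2523 from 120 to 180 degrees, against 5470.5, 5901 and 6945.5 from 0 to 60 degrees. GAT1 had 1853, 1877.5, 2362, 2432 and 2242 from 120 to 180 degrees, against 5125, 5344 and 5593 from 0 to 60 degrees. No array of the one window reached the other in these 3 genes, and the log2 differences were -1.66 ± 0.21, -1.42 ± 0.14 and -1.32 ± 0.18 (SE). With serially correlated arrays they were smaller, at -0.94 for AGP1 (adjusted p = 0.00478), -0.75 for CAN1 (adjusted p = 0.00383) and -0.79 for GAT1 (adjusted p = 0.00705). GAP1 had 6859, 6924, 7110.4, 7710.0 and 8423 from 120 to 180 degrees, against 10052, 11100.5 and 11476 from 0 to 60 degrees, which is a difference of -0.56 ± 0.07 (SE) without overlap, and of -0.30 with serially correlated arrays (adjusted p = 0.0249).

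PUT4 had 8902, 8453, 9055, 9066 and 9584 from 120 to 180 degrees, against 3769, 5684 and 8677.5 from 0 to 60 degrees. The windows overlapped through the last array, at 362.01 degrees, and the difference was 0.65 ± 0.14 (SE, adjusted p = 0.00013, limma), lost with serially correlated arrays (0.47, adjusted p = 0.0604). GCN4 had 14997, 14644, 14259, 14946 and 15112 from 120 to 180 degrees, against 12840.0, 13141 and 13740.3 from 0 to 60 degrees. They did not overlap, and the difference was 0.16 ± 0.04 (SE, adjusted p = 0.000167, limma), but it was 0.10 with serially correlated arrays (adjusted p = 0.172) and -0.03 on the deposited scale. URE2 differed by -0.20 ± 0.06 (SE), lost with serially correlated arrays (adjusted p = 0.225), and GLN3 by -0.21 ± 0.10 (SE), and the windows overlapped in both.

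Technical measures also moved between the windows. Of the 5 dimmest arrays 4 lay in the window from 120 to 180 degrees, which leaves 1 array there without them, and the differences were then -3.06 for DUR3, -2.32 for UGA4, -1.45 for CAN1, -1.45 for AGP1, -1.13 for GAT1 and -0.52 for GAP1. The log2 ratio of the 3' to the 5' ACT1 control probe set, a measure of RNA integrity and labelling, was 0.37 to 0.44 from 120 to 180 degrees and 0.46 to 0.68 from 0 to 60 degrees. Its part in the results was not tested.

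The 6 genes with fitted peaks near 0 degrees and clear swings passed the midpoints of their falls close together and those of their rises at different angles. For this the angle was read at which each log2 profile passed halfway between its highest and lowest array, a measure chosen after the profiles were seen and given with no test. Going down, GAT1 passed its midpoint at 88.6, AGP1 at 92.7, CAN1 at 94.9, GAP1 at 103.6, DUR3 at 104.2 and UGA4 at 108.8 degrees, a narrow stretch. Before the midpoint the falls differed. At 65.28 degrees UGA4 held 39.1% of its highest value, DUR3 59.9%, CAN1 84.1%, AGP1 86.8%, GAP1 95.6% and GAT1 97.4%. Going up, AGP1 passed at 181.7, GAP1 at 188.1, GAT1 at 216.4, CAN1 at 308.6, DUR3 at 315.2 and UGA4 at 339.6 degrees.

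Across 4 scalings of the arrays the falling midpoints of the 6 genes lay between 86.6 and 110.1 degrees. The rising midpoint of AGP1 lay between 181.5 and 191.7, of DUR3 between 301.1 and 318.3 and of UGA4 between 311.6 and 342.4 degrees, so AGP1 was earlier than DUR3 and UGA4 under each of these scalings. Those of GAT1 (193.7 to 246.8), GAP1 (185.7 to 267.7) and CAN1 (241.9 to 349.7) moved more with the scaling. At 231.43 degrees GAP1 held 85.4%, GAT1 62.5%, AGP1 51.9%, CAN1 42.7%, DUR3 14.2% and UGA4 12.9% of its own highest value. In the same order their lowest arrays held 59.7%, 33.1%, 21.3%, 30.2%, 8.58% and 10.5%. The shares therefore also reflect the size of each swing.

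**Figure D3:**
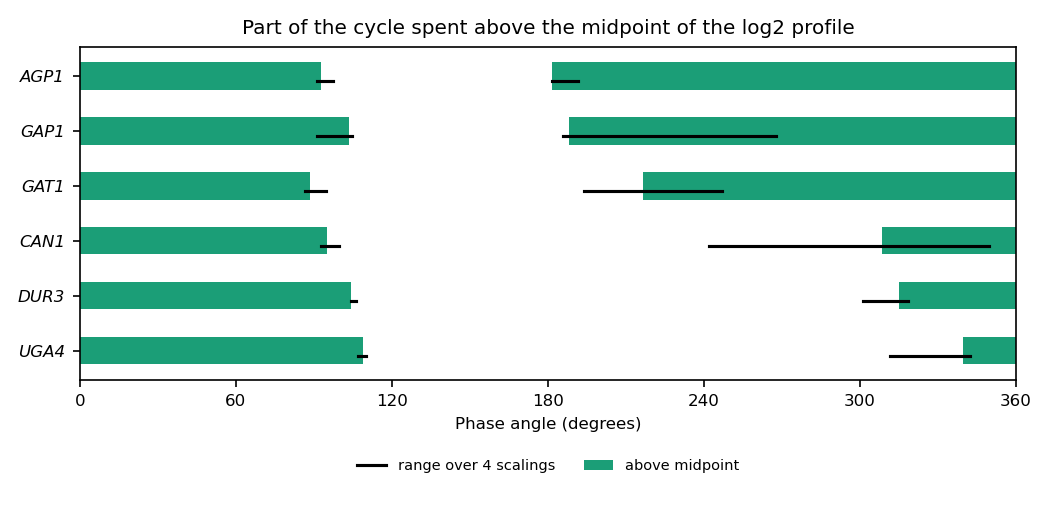
Stretches of the cycle (phase angle in degrees, horizontal axis) in which each gene's normalized log2 profile lay above the midpoint between its highest and lowest array (green bars). Black lines give the range of each crossing over 4 scalings of the arrays. Over these scalings the falls lie between 86.6 and 110.1 degrees. With quantile normalization the rises run from 181.7 degrees for AGP1 to 339.6 degrees for UGA4. The rise of CAN1 is at 308.6 degrees there and lies between 241.9 and 349.7 degrees over the scalings.

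The order of the 6 windows of 60 degrees was compared within each gene. Of 50 pairs of windows that were neighbours in a gene's order, 42 had overlapping arrays. This was not counted for all probe sets, so whether it is usual is not known. PUT4, UGA4, GCN4, GLN3 and URE2 had overlap between every pair of neighbours. AGP1 from 300 to 360 degrees was above AGP1 from 240 to 300 degrees, and this above 180 to 240 degrees, without overlap. The margins were small, with a lowest array of 5882 against a highest of 5838, and of 4854 against 4757. GAP1 from 120 to 180 degrees lay below each array of its next lowest window, and so did GAT1. The last array, at 362.01 degrees, and the first, at 5.93 degrees, lay almost a cycle apart. Last over first was between 0.89 (CAN1) and 1.07 (URE2) for all 10 genes, with 5448 against 5862 for DUR3 and 8677.5 against 8433 for PUT4.

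Several profiles resembled each other. Over the 31 arrays the Pearson correlation was 0.95 for UGA4 with DUR3, 0.95 for DUR3 with CAN1, 0.96 for AGP1 with GAT1, and 0.89 for CAN1 with AGP1 and with GAT1, whereas it was 0.19 for GLN3 with GAT1. PUT4 correlated negatively with each of the 5 other permeases, from -0.03 (GAP1) to -0.59 (UGA4). GCN4 correlated at -0.82 with DUR3. These values share arrays and their normalization and carry no test.

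Of 5372 other genes, the one most like GAP1 was PUT1 (r = 0.97), the proline oxidase gene, with 16 genes at 0.9 or more. AGP1 was most like HNM1 (r = 0.98), the choline transporter gene, UGA4 most like CHA1 (r = 0.96), the serine and threonine deaminase gene, and DUR3 most like VBA1 (r = 0.99), a vacuolar basic amino acid transporter gene. CAN1 was most like the ribosomal protein gene RPS8B (r = 0.98) and GAT1 most like SNU13 (r = 0.98), whose product is part of ribosome-building and splicing particles. The shapes were common: 354 genes reached 0.9 with CAN1, 265 with GAT1, 134 with AGP1 and 92 with UGA4, and the number for DUR3 lay between those for GAT1 and AGP1. PUT4 was most like SFC1 (r = 0.96), the mitochondrial succinate-fumarate carrier gene, GCN4 most like ERR3 (r = 0.92), an enolase-related gene, URE2 most like the threonine synthase gene THR4 (r = 0.87) and GLN3 most like the daughter-cell gene DSE2 (r = 0.76). No gene reached 0.9 with URE2 or GLN3. RPS8B and ERR3 belong to families of near-identical genes, whose probe sets may share signal. SFC1 missed the threshold for a single cosine (range 0.75 ± 0.33, SE, adjusted p = 0.104, limma).

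The rest of the nitrogen pathway was read from 7 lists of 112 genes, of which 110 had a probe set named in the annotation and passed the filter. Their members varied with phase in 104 of 110 cases, beside 89.1% of all probe sets tested, and in 84 with serially correlated arrays, beside 60.3%. Of the 110, 79 passed with peaks nearer 0 degrees and 25 with peaks nearer 180 degrees. Of all probe sets tested 40.2% passed with peaks nearer 0 and 48.9% with peaks nearer 180 degrees, and the splits of the lists below stand beside these shares.

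Among 15 other amino acid permeases all 15 passed, 12 with peaks nearer 0 and 3 nearer 180 degrees, with a median range of 1.46 beside 0.54 for all probe sets, and 12 passed with serially correlated arrays. MUP1, the high-affinity methionine permease, varied by 3.27 ± 0.40 (SE) with a peak at 343.3 degrees. The glutamine permease gene GNP1 varied by 1.90 ± 0.16, the S-adenosylmethionine permease gene SAM3 by 1.85 ± 0.17, the histidine permease gene HIP1 by 1.83 ± 0.24 and the S-methylmethionine permease gene MMP1 by 1.65 ± 0.17 (SE), with peaks from 312.0 to 16.5 degrees. ALP1, an arginine transporter gene whose protein is related to Can1, varied by 1.74 ± 0.22 (SE) with its peak at 239.8 degrees, against 8.8 degrees for CAN1. Probe sets of such related genes may share signal, so ALP1 and CAN1 are uncertain to that extent.

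All 6 other nitrogen-source permeases passed, with peaks nearer 0 degrees and a median range of 1.56, and all 6 passed with serially correlated arrays. The allantoin permease gene DAL4 varied by 3.31 ± 0.23, the allantoate permease gene DAL5 by 3.02 ± 0.18 and the ammonium permease gene MEP3 by 2.14 ± 0.18 (SE). Peaks of DAL4 and DAL5 lay at 21.6 and 28.0 degrees, close to those of DUR3 and UGA4.

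Of 13 enzymes that break down nitrogen sources all 13 passed, 9 with peaks nearer 0 and 4 nearer 180 degrees. The allantoin pathway genes DAL7, DAL1 and DAL2 varied by 3.15 ± 0.22, 3.07 ± 0.27 and 2.46 ± 0.14 (SE), with peaks from 11.6 to 26.4 degrees. The following were named after their values were seen. UGA1 and UGA2, which break down GABA, varied by 1.30 ± 0.19 and 1.09 ± 0.18 (SE) with peaks at 191.1 and 193.4 degrees, against 31.3 degrees for the GABA permease gene UGA4. From 120 to 180 degrees UGA1 was higher than from 0 to 60 degrees by 1.62 ± 0.17 (SE), where UGA4 differed by -2.25 ± 0.19 (SE). The ornithine transaminase gene CAR2 peaked at 200.6 degrees and the arginase gene CAR1 at 50.6 degrees, against 8.8 degrees for the arginine permease gene CAN1.

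Of 19 further nitrogen regulators and TOR pathway genes 15 passed, 7 with peaks nearer 0 and 8 nearer 180 degrees, with a median range of 0.34. These 15 are 78.9% of the list, below the 89.1% of all probe sets, and 9 of the 19 passed with serially correlated arrays, where 60.3% of all probe sets did. DAL80 and GZF3, GATA-type repressors of the same genes, varied by 1.93 ± 0.17 and 1.11 ± 0.12 (SE) with peaks at 34.0 and 354.0 degrees. The proline-pathway activator gene PUT3 varied by 0.80 ± 0.08 (SE) with a peak at 207.3 degrees. With GAT1 this leaves 3 of the 4 GATA factor genes, all but GLN3, with ranges over 2-fold.

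Of 16 genes of the amino acid sensor at the plasma membrane and of permease sorting 14 passed, 8 with peaks nearer 0 and 6 nearer 180 degrees, none of them with a 2-fold range, and 9 passed with serially correlated arrays. The ubiquitin protease gene DOA4 varied by 0.97 ± 0.13, and ASI1 and ASI2, of the inner nuclear membrane complex that restrains the sensor's transcription factors, by 0.83 ± 0.14 and 0.81 ± 0.13 (SE). The peaks of ASI2 and DOA4 lay at 166.7 and 190.1 degrees.

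All 13 genes for GCN4's translation control and protein turnover passed, 10 with peaks nearer 0 and 3 nearer 180 degrees, and 12 passed with serially correlated arrays. The translation factor eIF2B subunit genes GCN3 and GCD6 varied by 1.45 ± 0.19 and 1.18 ± 0.14 (SE), and PCL5, a cyclin gene for Gcn4 degradation, by 0.97 ± 0.14 (SE) at 47.7 degrees. Of 28 synthesis genes that Gcn4 activates all 28 passed, 27 with peaks nearer 0 degrees and 1 nearer 180 degrees, and 24 passed with serially correlated arrays. ADE4, of purine synthesis, varied by 1.90 ± 0.17, the threonine deaminase gene ILV1 by 1.67 ± 0.15 and the aspartate kinase gene HOM3 by 1.51 ± 0.20 (SE), with peaks from 356.6 to 14.4 degrees. From 120 to 180 degrees 26 of the 28 were lower than from 0 to 60 degrees, with a median difference of -0.80 beside 0.07 for all probe sets, and against 38.6% of all probe sets that were lower. GCN4 itself differed by 0.16, a call that was lost with serially correlated arrays and that changed sign on the deposited scale, as given above.

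**Figure D4:**
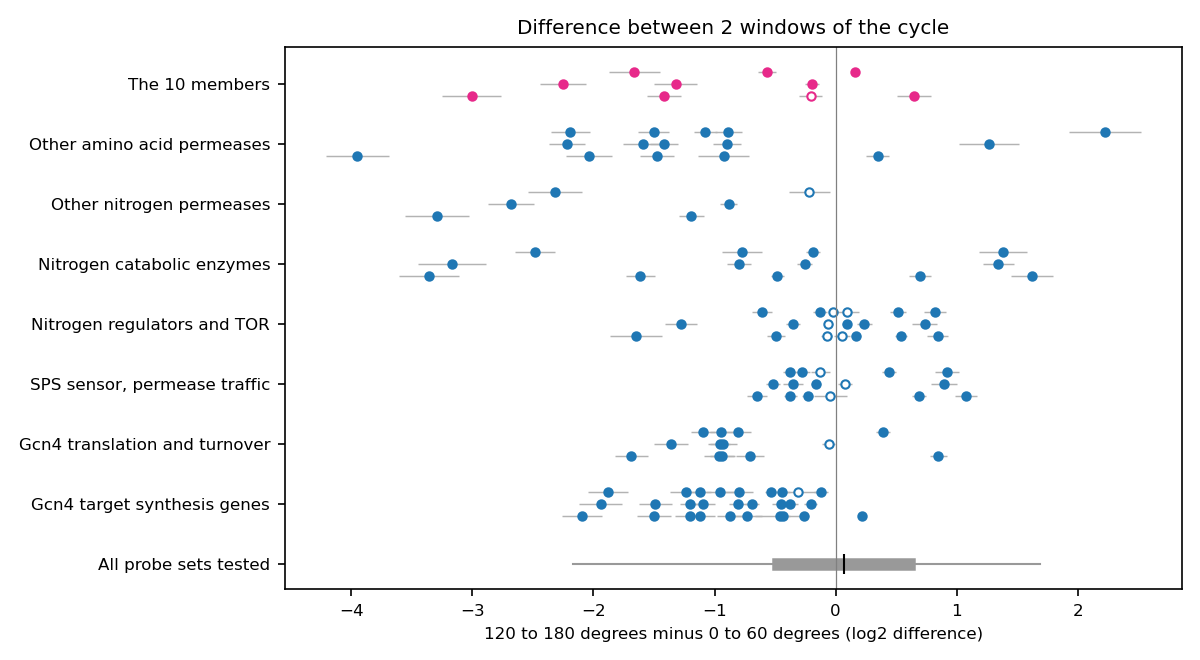
Log2 difference between 120 to 180 degrees and 0 to 60 degrees (horizontal axis) for the 10 genes and the measured members of 7 lists (rows). Points are genes with SE bars, filled where the adjusted p was under 0.05, and the grey row gives the median, quartiles and percentiles 5 to 95 of all 5422 probe sets tested. Among the 10 genes 7 lie below 0 and pass, PUT4 and GCN4 lie above, and among 28 Gcn4 target synthesis genes 26 lie below 0 and pass.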

How the data were processed

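Per the submitters' processing notes, the authors made the deposited signal intensities (linear scale, 0.1 to 24502) with GCOS. Neither the version of GCOS nor its scaling is stated in the sources used here. Per the labels, cRNA was made from oligo(dT)-primed RNA, biotin-labelled and hybridized by the Affymetrix procedure.

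Of 10928 probe sets, 5498 had 1 S. cerevisiae gene in the array annotation (12 symbols updated from RefSeq R64). Intensities were taken to log2 and quantile-normalized over these. Probe sets with a median at or under 16.88, percentile 95 of those of another organism, were left out (76), and 5422 were tested. Where genes were compared by likeness, the brightest probe set stood for each. Fits were run in limma 3.58.1 (R 4.3.3) on cosine and sine of the angle, on terms at 2 and 3 times the angle, and on 6 windows of 60 degrees. SEs of ranges and peaks use the delta method, from fits that take the arrays as independent. Serially correlated arrays were pre-whitened at 0.645. The cosine, faster-term and window fits were tested on simulated data with independent noise, and the cosine fit also with serially correlated noise. Other steps were not tested this way. Figures used matplotlib 3.10.9.

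The genes named are the 10 chosen, the gene most correlated with each, and in each list the 3 with the largest range and those of 3-fold or more, besides UGA1, UGA2, CAR1 and CAR2, which were named after their values were seen. Members and lists were chosen with earlier results of these data known. The labels name no separate cultures, so p-values measure the spread between its arrays. Array number limits the precision. No sequences were read.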

Additional observations from a re-analysis of the deposited data

How the results depend on the processing

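No paired analysis was possible because each labelled angle was measured once and the labels give a single group. Over 16 alternatives 6 to 10 of the 10 genes varied with phase (9 as reported) and 84 to 108 of the 110 listed genes (104 as reported). Over 14 alternatives 6 to 10 differed between 120 to 180 and 0 to 60 degrees. The counts of 6 and 84 were found with serially correlated arrays. There 60.3% of all probe sets varied with phase, and 54.4% differed between the windows. GAP1, AGP1, UGA4, DUR3, CAN1 and GAT1 kept their call for variation with phase under all 16, with highest adjusted p-values (limma) from 0.000143 to 0.00244, and their call and direction between the windows under all 14. Faster variation was called for 6 of 10 within batch 1, on even arrays alone and with serially correlated arrays. The shares of all probe sets called were 63.0%, 62.2% and 48.0% in the same order. With serially correlated arrays 9 of 19 regulators and TOR genes and 9 of 16 sensor and sorting genes passed, beside 60.3% of all probe sets. On even arrays alone 9 of 16 sensor and sorting genes passed, beside 72.5% of all probe sets. Between the windows GCN4 changed sign on the deposited scale (-0.0338, adjusted p = 0.721, limma, range over alternatives 0.000142 to 0.721); the cause was not tested. That scale lowers the median of all probe sets from 120 to 180 against 0 to 60 degrees by 0.26 (log2), and lower ones then make up 62.1% of called probe sets, against 45.9% with quantile normalization. Peaks nearer 0 degrees make up 67.1% of those called there and 45.1% with quantile normalization. Of 160 single-gene ranges under alternatives, 145 stayed on their side of the threshold, 12 were lost (PUT4, GCN4 and URE2) and 3 gained (GLN3). Leaving out the filter, a stricter filter and the mean over probe sets could not change these ranges or the window differences. Each of the 10 genes had 1 probe set, so these alternatives could alter only the adjusted p. They are among the 16 and the 14, and add little to these counts. Fits within a batch or on odd or even arrays have fewer arrays. Signals near the top of the scale (GAP1, PUT4, GCN4) limit what can be said of their size.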
